A study of Mus musculus with 6 samples.

Results

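The pre-B cell receptor and the first enzymes it engages were described in pro-B cells, which are B cell precursors at an early stage in mouse bone marrow. The 9 genes named for this purpose were Vpreb1, Vpreb3, Cd79a, Cd79b, Lyn, Syk, Btk, Blnk and Plcg2. A gene was read from probe sets annotated with its symbol alone, and 8 of the 9 had such a probe set, each exactly 1, among 17097 genes in all. Lyn had none and was not analysed here. The cells were sorted as B220+CD43+IgM- on 3 arrays labelled HDAC7 deficient and 3 arrays labelled wild type, in biological triplicate. HDAC7 is a histone deacetylase, and the HDAC7-deficient cells came from HDAC7 conditional mice. The sources used here do not give the strain, the age, any treatment or the driver of the deletion. A common driver for B cell precursors, mb1-Cre, is inserted into Cd79a itself, so the driver matters for reading that gene. Values are log2 expression per probe set and array, and arrays of 1 colour such as these allow a gene to be compared between arrays, not with another gene.

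The pre-B cell receptor appears once a precursor has rearranged its immunoglobulin heavy chain. The heavy chain then pairs with a surrogate light chain, made of the VPREB and lambda 5 proteins, and with the signalling subunits CD79A and CD79B, whose tails are phosphorylated when the receptor clusters. SYK docks on these tails and phosphorylates the adaptor BLNK, which gathers BTK and phospholipase C gamma 2, and the resulting signal drives the precursors to divide and to move on to light chain rearrangement.

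None of the 8 measured genes differed between the genotypes at a limma adjusted p of 0.05, and none did so at an unadjusted p of 0.05. Over all genes 0% passed the adjusted threshold, while 3.52% were higher and 9.14% lower at the unadjusted one. Changes, as log2 of HDAC7 deficient minus wild type, ran from -0.16 to 1.79 with a median of 0.40 over the 8 genes, against -0.03 over all genes and 0.56 over the 4275 genes of highest mean expression. All 8 genes had overlapping groups, whereas groups did not overlap for 26.3% of all genes. With wild-type replicate 3 left out, again 0% of genes passed, and the 8 genes had a median change of -0.07 and a range of -0.47 to 0.21.

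The arrays themselves differed in ways that touch every value below. Wild-type replicate 3 correlated with the other 5 arrays at 0.70 to 0.82 over probe sets and had an interquartile range of 1.72, against 2.27 to 2.93 for the others. The 3' control probe sets of Actb exceeded the middle ones by 1.69 on that array and by 0.16 to 0.26 on the others. Xist, transcribed from the silenced X chromosome of females, was 11.40 and 11.27 on HDAC7-deficient replicates 2 and 3 and 8.51 on wild-type replicate 3 (together called Xist-high). The other 3 arrays had 4.87 to 5.38 (Xist-low). The 18 hybridisation spike-in controls averaged 9.99 to 10.78 on the Xist-high set, against 8.64 to 9.17 on the Xist-low set, so cell sex and hybridisation cannot be told apart. Hdac7 read 9.95, 9.54 and 9.27 on the HDAC7-deficient arrays, against 9.06, 9.48 and 7.31 on the wild-type arrays. It was thus not lower in the HDAC7-deficient group (limma adjusted p = 0.399), and whether its probes lie in the deleted part is not known here. These values are those of its brightest probe set, with a change of 0.97. The mean over all probe sets of Hdac7 gave a change of 0.92. Each direction below is that of the arrays as labelled.

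Of the listed markers of the sorted pro-B cells, Kit was dim, at percentile 21.7 to 53.8 of all probe sets across the arrays. The other measured ones were at percentile 68.5 or above on every array. The 9 measured of 12 pro-B markers averaged 9.45, 8.72 and 8.59 on the HDAC7-deficient arrays and 8.90, 9.13 and 8.12 on the wild-type arrays. Igll1 and Il7r were among those of the list not analysed here. Genes of other cells were read as well: Mpo, which encodes the myeloperoxidase of granulocyte precursors, lay between 9.92 and 11.98 on all 6 arrays. The listed myeloid markers varied in level. Mpo was at percentile 98.1 to 99.9 of all probe sets and Lyz2 at 98.4 to 99.5, but Csf1r at 63.4 to 71.2 and Cd14 at 42.3 to 56.5. In bulk samples such as these, fewer cells of a type and less RNA per cell cannot be told apart. Ms4a1, which encodes the mature B cell protein CD20, was 5.15, 7.40 and 6.87 on the HDAC7-deficient arrays, against 4.57, 5.35 and 11.35 on the wild-type arrays. Wild-type replicate 3 was the highest array for this gene by a wide margin. The marker genes named here and below were chosen after their values were seen.

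**Figure D1:**
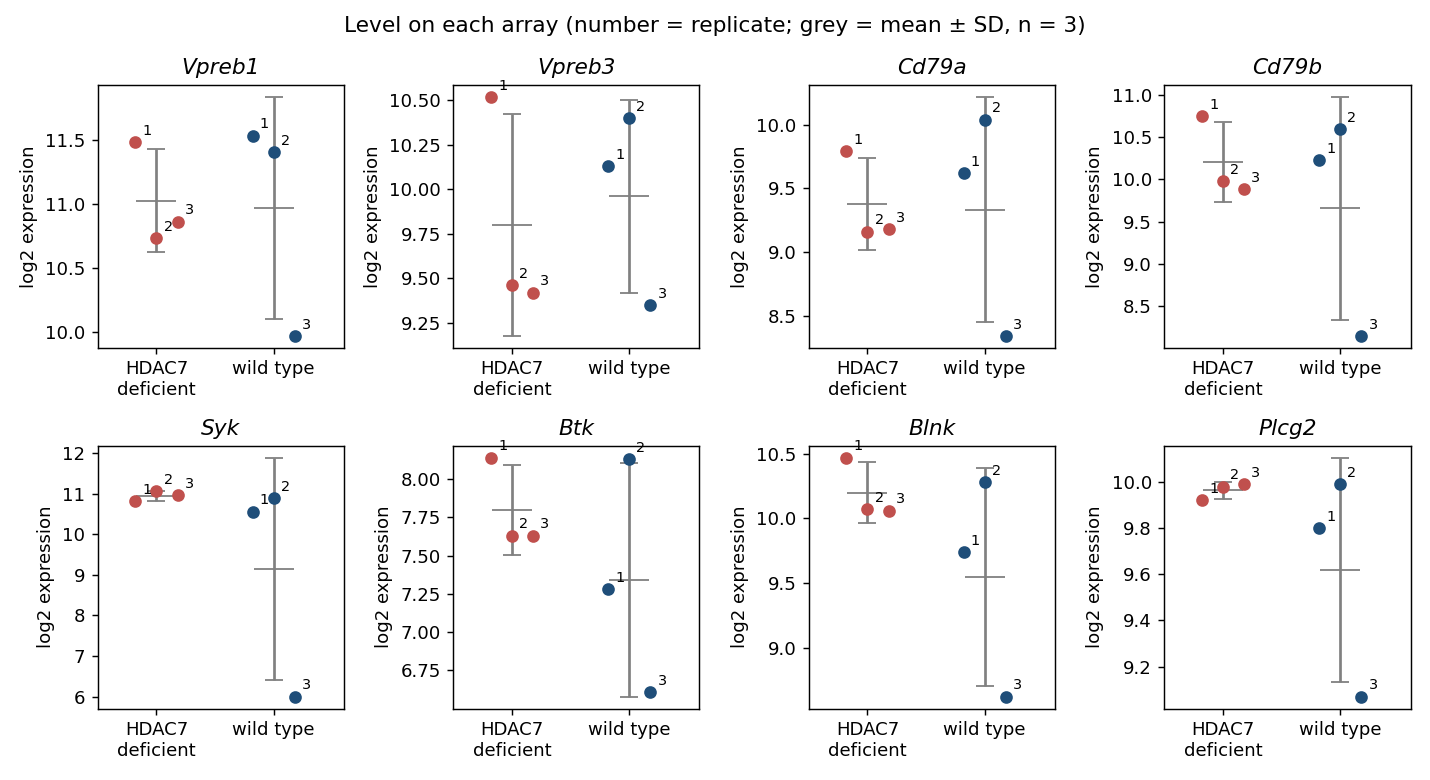
Log2 expression of the 8 measured genes (1 panel per gene, vertical axis scaled to each) on the 3 HDAC7-deficient arrays (red) and the 3 wild-type arrays (blue), numbered by replicate, with the mean ± SD in grey. Wild-type replicate 3 is the lowest point in every panel, and the groups overlap in every panel.

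The surrogate light chain genes Vpreb1 and Vpreb2 and the related Vpreb3 come first. Vpreb1, which encodes the V-like chain of the surrogate light chain, read 11.48, 10.73 and 10.86 on the HDAC7-deficient arrays, against 11.53, 11.40 and 9.97 on the wild-type arrays. HDAC7-deficient replicate 1 thus lay with wild-type replicates 1 and 2, replicates 2 and 3 lay below them, and wild-type replicate 3 was lowest. The means were 11.02 ± 0.40 and 10.97 ± 0.86 (SD, n = 3 each), a change of 0.05 ± 0.49 (SE) with a limma adjusted p of 0.943. Without wild-type replicate 3 the change was -0.44 ± 0.20, with a 95% interval of -0.90 to 0.01, an unadjusted p of 0.0547 and a limma adjusted p of 0.369. The close copy Vpreb2 was read by a probe set whose suffix marks probes shared between transcripts, so the 2 may share signal. It read 10.43, 9.33 and 9.42 in HDAC7-deficient cells, against 10.08, 10.28 and 7.41 in wild-type cells. As for Vpreb1, HDAC7-deficient replicates 2 and 3 lay below replicate 1 and wild-type replicates 1 and 2, and above wild-type replicate 3.

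Vpreb3, whose product resembles VPREB1 and associates with newly made immunoglobulin chains in the cell, read 10.52, 9.46 and 9.42 on the HDAC7-deficient arrays. The wild-type arrays had 10.13, 10.40 and 9.35. HDAC7-deficient replicates 2 and 3 lay close to wild-type replicate 3 here, and the remaining arrays lay above all 3. The group means were 9.80 ± 0.62 and 9.96 ± 0.55 (SD, n = 3 each), and the change of -0.16 ± 0.45 had a limma adjusted p of 0.813. Without wild-type replicate 3 it was -0.47 ± 0.31 (limma adjusted p = 0.518).

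The signalling subunits followed the same order. Cd79a read 9.79, 9.16 and 9.18 in HDAC7-deficient cells, against 9.62, 10.04 and 8.34 in wild-type cells. Its change was 0.04 ± 0.50 with a limma adjusted p of 0.959, or -0.46 ± 0.24 (limma adjusted p = 0.418) without wild-type replicate 3, with a 95% interval of -1.0 to 0.09. Cd79b read 10.75, 9.98 and 9.88 in HDAC7-deficient cells, against 10.23, 10.59 and 8.15 in wild-type cells. Its change was 0.55 ± 0.67 (limma adjusted p = 0.585), or -0.21 ± 0.26 (limma adjusted p = 0.741) without wild-type replicate 3. For both subunits HDAC7-deficient replicates 2 and 3 lay between wild-type replicate 3 and the other arrays.

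The kinase, adaptor and effector genes follow. Syk read 10.82, 11.06 and 10.96 in HDAC7-deficient cells, against 10.56, 10.90 and 6.0 in wild-type cells. The 5 arrays other than wild-type replicate 3 thus lay close together, and that array lay far below them. The change of 1.79 ± 1.23 (limma adjusted p = 0.420) became 0.21 ± 0.13 without that array, with a 95% interval of -0.08 to 0.50 (limma adjusted p = 0.463). Btk, the kinase whose loss causes X-linked agammaglobulinaemia in humans, read 8.14, 7.63 and 7.63 in HDAC7-deficient cells, against 7.28, 8.13 and 6.61 in wild-type cells. Its change was 0.46 ± 0.43 (limma adjusted p = 0.496), or 0.10 ± 0.31 without wild-type replicate 3, and its wild-type replicates 1 and 2 were the most widely spaced of the 8 genes.

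Blnk, the adaptor, read 10.47, 10.07 and 10.06 in HDAC7-deficient cells, against 9.74, 10.28 and 8.62 in wild-type cells. HDAC7-deficient replicates 2 and 3 fell between wild-type replicates 1 and 2. The change was 0.66 ± 0.47 (limma adjusted p = 0.429), or 0.19 ± 0.20 (limma adjusted p = 0.680) without wild-type replicate 3. Plcg2, the phospholipase that releases calcium and activates protein kinase C, was the steadiest. It read 9.92, 9.98 and 9.99 in HDAC7-deficient cells, an SD of 0.04, against 9.80, 9.99 and 9.07 in wild-type cells. Its change was 0.35 ± 0.34 (limma adjusted p = 0.516), or 0.07 ± 0.13 without wild-type replicate 3, with a 95% interval of -0.23 to 0.37.

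**Figure D2:**
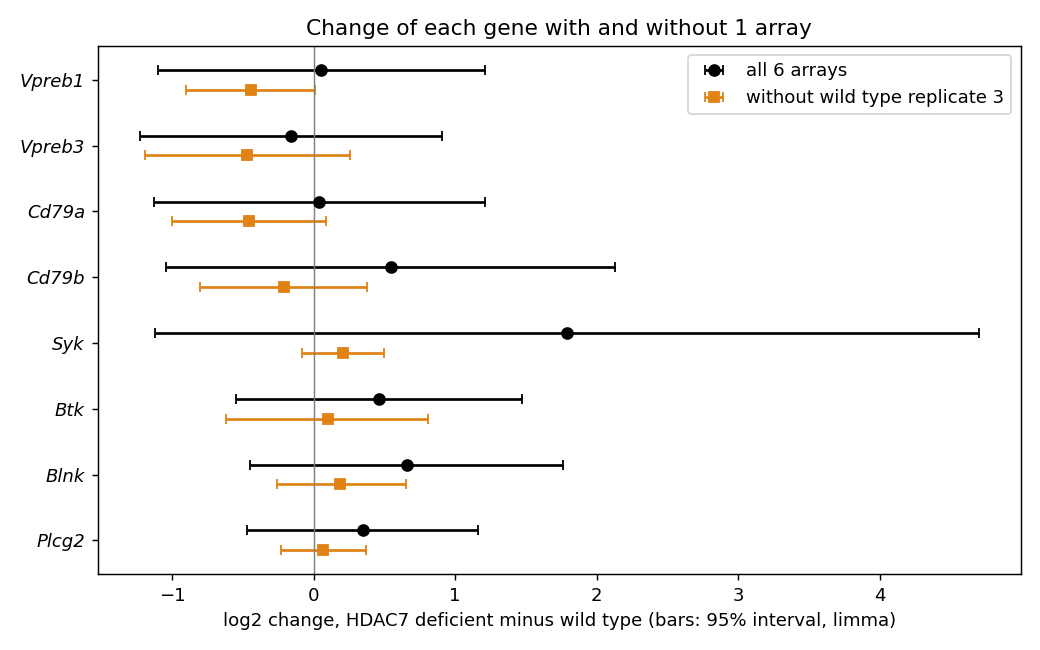
Change of each gene (log2, HDAC7 deficient minus wild type) with its 95% limma interval, for all 6 arrays (black circles) and without wild-type replicate 3 (orange squares). Every interval includes 0, the widest is that of Syk at -1.12 to 4.70, and without that array Vpreb1, Vpreb3, Cd79a and Cd79b lie below 0 and the other 4 genes above it.

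Wild-type replicate 3 was the lowest array for all 8 genes, as it was for 37.8% of all genes. Its difference from the mean of wild-type replicates 1 and 2 ran from -0.83 for Plcg2 to -4.74 for Syk, with a median of -1.44 over the 8 genes, against 0.12 over all genes and -1.37 over the genes of highest mean expression. The Syk difference was far down that distribution, with only 13 of 17097 genes lower. Cd79b had 6.43% of genes below it and the other 6 genes 14.6% to 25.3%. Ranks within an array, which do not depend on the spread of its values, separated the genes further. Syk was at percentile 98.2 to 99.1 of all probe sets on the other 5 arrays and at 45.3 on wild-type replicate 3. Plcg2 was at 95.4 to 96.2 on the other 5 arrays and at 96.4 on that one. Vpreb3 was at 97.1 on wild-type replicate 3, beside 96.9 and 97.5 on wild-type replicates 1 and 2, and Cd79a was at 93.5, beside 94.9 and 96.1. Btk was at 64.0 on that array, against 75.2 to 81.9 on the other 5, and Cd79b at 92.1, against 95.8 to 98.4. Beside these values, Actb 3' excess and Ms4a1 were highest on that array, and their part in the differences was not tested.

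**Figure D3:**
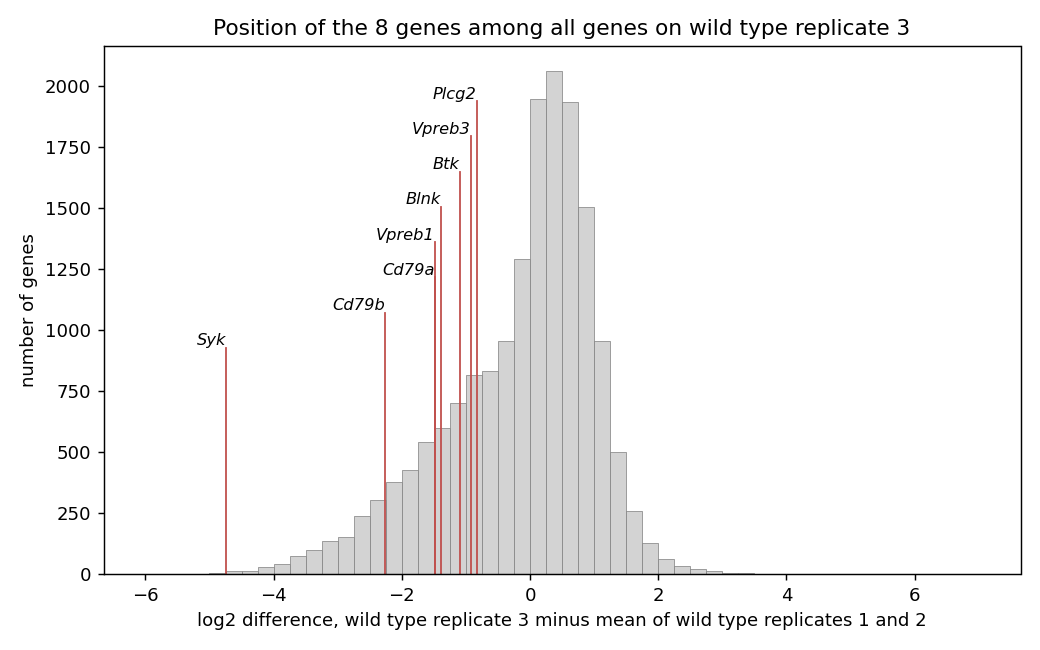
Histogram over 17097 genes of the log2 difference between wild-type replicate 3 and the mean of wild-type replicates 1 and 2 (horizontal axis; vertical axis, number of genes), with the 8 genes marked by red lines. Syk, at -4.74, lies in the far left tail, and the other 7 lie between -2.26 and -0.83.

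The second pattern was within the HDAC7-deficient group. Replicates 2 and 3 were below HDAC7-deficient replicate 1 and wild-type replicates 1 and 2 for Vpreb1, Vpreb3, Cd79a and Cd79b. That order was seen for 13.7% of all genes. These 4 are called the chain genes here, although Vpreb3 is only related to the surrogate light chain genes. Replicates 2 and 3 were above the same 3 arrays for Syk, an order seen for 12.1%, and overlapped them for Btk, Blnk and Plcg2. Replicates 2 and 3 minus replicate 1 gave -0.68 for Vpreb1, -1.08 for Vpreb3, -0.62 for Cd79a and -0.83 for Cd79b. The same difference was -0.51 for Btk, -0.40 for Blnk, 0.19 for Syk and 0.07 for Plcg2. The median was -0.75 over the 4 chain genes and -0.17 over the other 4 genes. Over all genes it was 0.03, and over the genes of highest mean expression -0.10. By rank within the array, Vpreb3 was at percentiles 97.8, 92.8 and 93.3 on HDAC7-deficient replicates 1, 2 and 3, and Cd79a at 94.6, 90.6 and 91.7. Both genes were thus also lower on replicates 2 and 3 than on wild-type replicate 3 by rank, whereas Vpreb1, at 98.4 and 98.7 against 98.2, and Cd79b, at 95.9 and 95.8 against 92.1, were not.

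These differences were also estimated in a limma fit of the 5 arrays without wild-type replicate 3, with genotype and the Xist division as terms. The division, drawn from Xist values of the same arrays, is estimated there from HDAC7-deficient replicates 2 and 3 against replicate 1 alone. The fit gave -1.08 for Vpreb3, -0.83 for Cd79b, -0.68 for Vpreb1 and -0.62 for Cd79a. It gave -0.51 for Btk, -0.40 for Blnk, 0.19 for Syk and 0.07 for Plcg2. Vpreb1 and Vpreb3 also passed with the 5 arrays quantile normalized (limma adjusted p = 0.0213 and 0.0108) or centred on their medians (0.0108 and 0.0315), and Cd79b passed under the quantile scaling (0.0299). The share of all genes that passed in this direction was 1.35% under the quantile scaling and 0.731% under the centring, both above that of the deposited values. The fit has a single array on 1 side, which is assumed to vary like the others. Its error comes only from wild-type replicate 1 against 2 and HDAC7-deficient replicate 2 against 3. The fit therefore cannot decide whether these genes differ across the division, and only effect sizes are given. With all 6 arrays the division had limma adjusted p-values of 0.211 to 0.387 for the 8 genes.

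**Figure D4:**
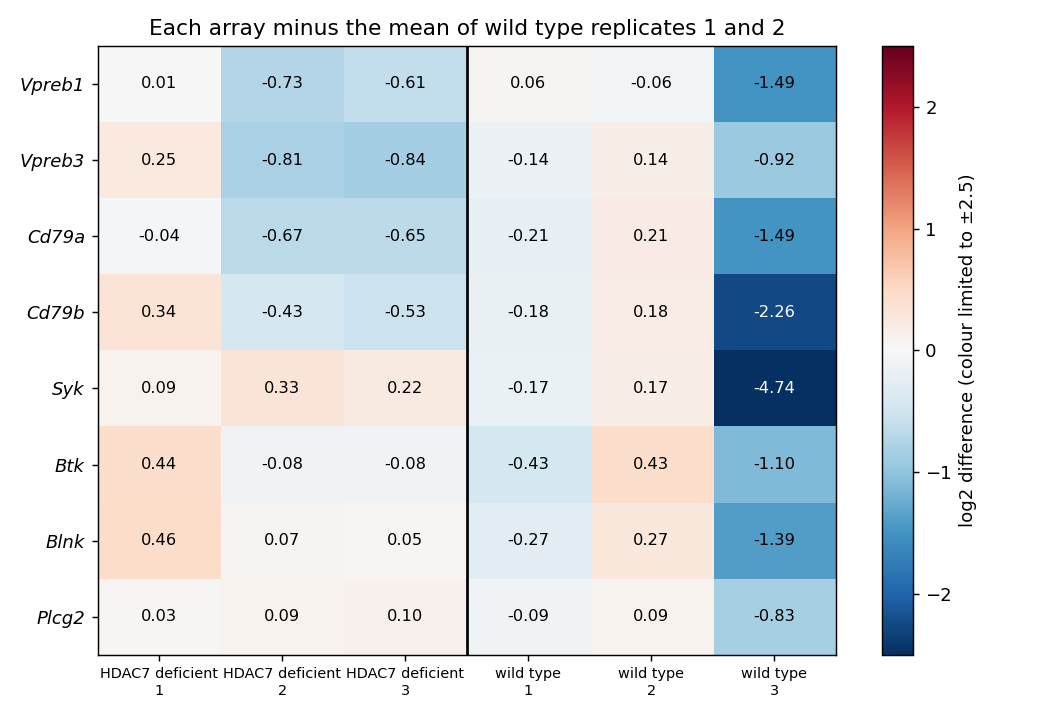
Log2 difference of each array from the mean of wild-type replicates 1 and 2 for the 8 genes (rows), with HDAC7-deficient arrays left of the black line and wild-type arrays right of it. The top 4 rows, the chain genes, are between -0.43 and -0.84 on HDAC7-deficient replicates 2 and 3. The lower 4 rows are between -0.08 and 0.33 there, and wild-type replicate 3 is negative in every row.

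Some marker lists also differed between these arrays, and no list was tested. On HDAC7-deficient replicates 2 and 3, 8 of 9 pro-B markers were lower than on replicate 1, with a median difference of -0.76, as were 46.3% of all genes and 62.8% of the genes of highest mean expression. The recombinase genes Rag1 and Rag2 had differences of -1.88 and -2.05 there, and Dntt, which encodes the enzyme that adds bases at V(D)J joints, one of -0.78. All 5 measured of 8 plasmacytoid dendritic cell markers were higher, with a median of 1.23, and averaged 8.88, 9.97 and 9.83 on the HDAC7-deficient arrays and 8.35, 9.01 and 6.63 on the wild-type arrays. Siglech, Bst2 and Ly6c2 of that list were not measured. All 5 measured of 7 erythroid markers were also higher, with a median of 1.04. The 5 measured of 8 later B cell markers averaged 6.42, 7.08 and 6.92 on the HDAC7-deficient arrays, against 6.37, 6.45 and 8.13 on the wild-type arrays. Without Ms4a1 the other 4 averaged 6.74 to 7.01 on the HDAC7-deficient arrays, against 6.82, 6.73 and 7.32 on the wild-type arrays, and Cd2 was lowest on wild-type replicate 3, at 7.23. The 10 myeloid markers averaged 8.54 to 8.88 in the HDAC7-deficient group, against 7.32 to 8.55 in the wild-type group, and the 8 measured of 9 T and NK cell markers 7.37 to 7.81, against 6.50 to 7.72. Their median differences between HDAC7-deficient replicates 2 and 3 and replicate 1 were 0.17 and 0.02. The part of these markers, of cell sex and of hybridisation in the values of the chain genes was not tested.

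**Figure D5:**
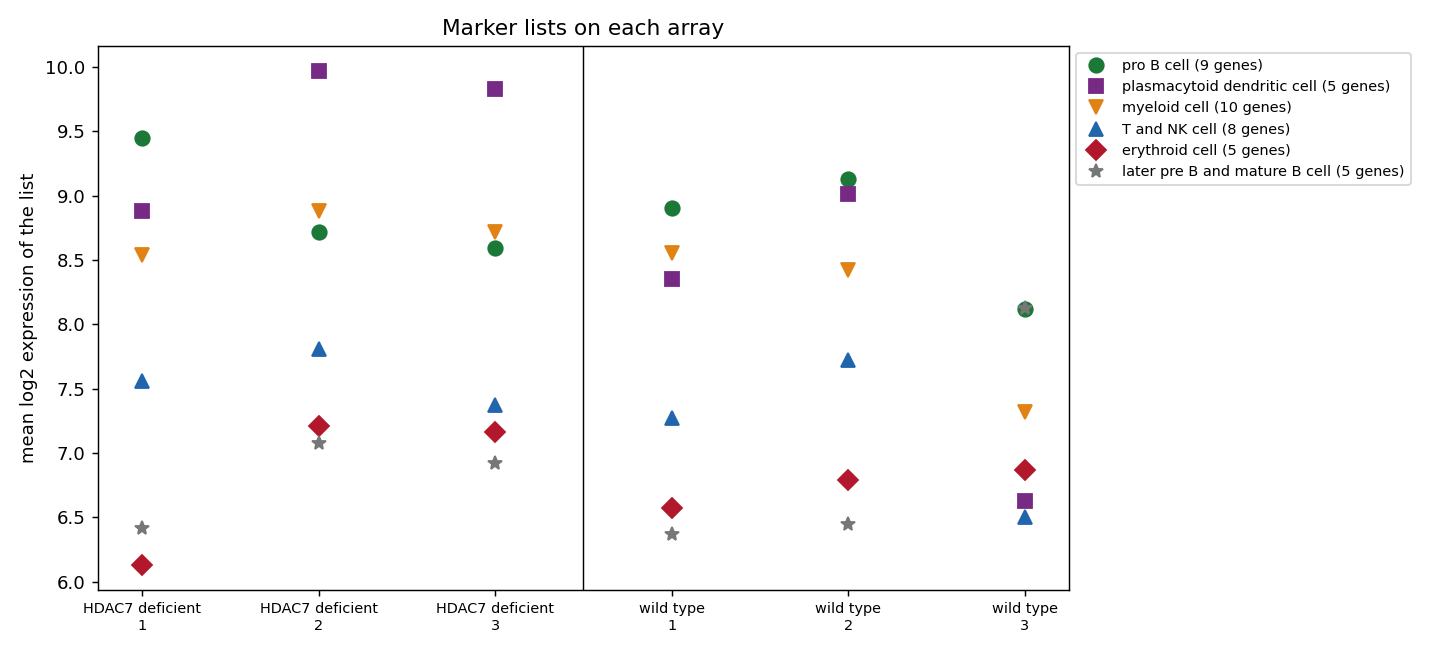
Mean log2 expression of each marker list (symbols; number of measured genes in the legend) on the HDAC7-deficient arrays (left of the line) and the wild-type arrays (right of it). HDAC7-deficient replicates 2 and 3 have the highest plasmacytoid dendritic cell means, at 9.97 and 9.83, and wild-type replicate 3 has the highest later B cell mean, at 8.13, or 7.32 without Ms4a1.

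Within each Xist division the genotypes can be set side by side, though each division has a genotype with 1 array. On the Xist-low arrays HDAC7-deficient replicate 1 minus the mean of wild-type replicates 1 and 2 was 0.01 for Vpreb1, 0.25 for Vpreb3, -0.04 for Cd79a and 0.34 for Cd79b. It was 0.09 for Syk, 0.44 for Btk, 0.46 for Blnk and 0.03 for Plcg2. The median of 0.17 over the 8 genes stood against -0.04 over all genes and 0.14 over those of highest mean expression. Among Xist-high arrays, where the only wild-type array is replicate 3, the same genes ran from 0.09 for Vpreb3 to 5.01 for Syk with a median of 0.97, against 1.44 over the genes of highest mean expression. With the division as a block and all 6 arrays, the changes were 0.17 for Vpreb3 to 2.55 for Syk, and the smallest limma adjusted p was 0.104, for Blnk.

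Promoter sequence was available for 7 of the 8 measured genes in RefSeq windows of build GRCm38.p6, which run from 250 bases before to 50 bases after a transcript start. Cd79b was not among them. The windows of the other 3 chain genes and, for contrast, that of Blnk, which did not share their order of arrays, are shown 5' to 3' on the gene's strand. Capitals mark matches on either strand to the E protein motif CAGNTG, the ETS motif GGAAGT or the octamer ATGCAAAT.
Vpreb1 (chr16:16869206-16869505, minus strand): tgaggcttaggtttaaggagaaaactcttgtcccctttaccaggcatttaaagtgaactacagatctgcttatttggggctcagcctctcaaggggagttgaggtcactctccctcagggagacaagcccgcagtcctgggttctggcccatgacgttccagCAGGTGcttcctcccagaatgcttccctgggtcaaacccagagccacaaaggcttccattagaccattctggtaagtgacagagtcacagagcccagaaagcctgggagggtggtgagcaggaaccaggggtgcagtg
Vpreb3 (chr10:75948050-75948349, plus strand): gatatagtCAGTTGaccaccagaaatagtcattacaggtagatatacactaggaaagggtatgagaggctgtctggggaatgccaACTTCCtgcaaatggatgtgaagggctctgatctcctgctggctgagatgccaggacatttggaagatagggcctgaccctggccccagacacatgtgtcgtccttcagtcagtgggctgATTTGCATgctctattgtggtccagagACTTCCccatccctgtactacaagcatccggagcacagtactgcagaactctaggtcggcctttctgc
Cd79a (chr7:24897247-24897546, plus strand): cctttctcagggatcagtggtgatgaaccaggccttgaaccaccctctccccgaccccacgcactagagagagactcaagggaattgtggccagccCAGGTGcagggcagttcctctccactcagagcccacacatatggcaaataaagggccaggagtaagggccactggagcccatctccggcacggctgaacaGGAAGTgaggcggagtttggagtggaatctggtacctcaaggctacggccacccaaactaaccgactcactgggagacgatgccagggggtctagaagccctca
Blnk (chr19:40994172-40994471, minus strand): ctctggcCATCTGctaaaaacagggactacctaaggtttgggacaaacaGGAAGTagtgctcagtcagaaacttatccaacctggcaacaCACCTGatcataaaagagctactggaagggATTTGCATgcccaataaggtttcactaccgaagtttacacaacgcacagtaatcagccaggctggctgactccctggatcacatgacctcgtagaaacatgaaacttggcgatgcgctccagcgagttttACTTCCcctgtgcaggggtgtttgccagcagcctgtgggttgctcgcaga

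The E protein motif had 1 match in each of the 3 chain gene windows and 2 in that of Blnk, and it is present in 51.4% of all 32851 windows. The ETS motif had 0 matches in Vpreb1, 1 in Cd79a and 2 each in Vpreb3 and Blnk, and is present in 23.8% of windows. The octamer, the binding site of the OCT factors, had 1 match each in Vpreb3 and Blnk and is present in 1.74% of windows. The core letters CCCNNGGG of the EBF1 site, present in 13.7% of windows, were in none of the 4. Only exact letters were searched, so a site that departs from them would be missed, and absence of a match does not show absence of a site. No matches overlapped.

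The rest of the pathway was read from 6 lists with 71 measured of 83 genes, chosen with earlier results of these data known. None passed a limma adjusted p of 0.05 in either direction. Of the 71 genes 64 were higher in HDAC7-deficient cells, with a median change of 0.54. Without wild-type replicate 3, 58 were higher, with a median of 0.14. Of the genes of highest mean expression 89.6% were higher, with a median of 0.56, or 59.9% with a median of 0.06 without wild-type replicate 3. Of all genes 48.0% were higher, or 43.2% without that array. With all 6 arrays the count of 64 of 71 is near the share among the genes of highest mean expression. The 6-array counts of higher genes in the lists below are read against that share. Without wild-type replicate 3 the count of 58 of 71 is above the share of 59.9%, and the reason was not tested. The lists were not matched to those genes by expression, and they also hold dim genes such as Yes1, at percentile 5.1 to 8.9 of all probe sets. Among the partner chains 2 of 5 were measured, Vpreb2 and Ighm, the heavy chain gene, with changes of 0.47 ± 0.80 and 0.20 ± 0.28. Igll1, Igkc and Iglc1 were not measured. Among 9 measured of 11 coreceptor and related kinase genes 8 were higher (median 0.43), with the Tec family kinase gene Bmx at 0.62 ± 0.22 and the Src family kinase gene Fgr at 1.20 ± 0.67.

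Among 25 measured of 28 downstream adaptors and enzymes 22 were higher (median 0.62). Malt1, which encodes a protease of the NF-kB branch, had the smallest unadjusted p, 0.00585, and read 8.90, 9.05 and 9.29 in HDAC7-deficient cells, against 7.84, 8.22 and 7.59 in wild-type cells. Its groups did not overlap, its change was 1.20 ± 0.31 (limma adjusted p = 0.377), and it was 1.05 without wild-type replicate 3 (limma adjusted p = 0.176). Groups did not overlap for 26.3% of all genes with all 6 arrays, or for 30.7% once that array was left out. Among the list genes named, those of Bmx, Dapp1 and Lcp2 did not overlap either. The adaptor gene Dapp1 had 0.73 ± 0.37. All 17 measured of 19 inhibitors were higher (median 0.55, or 0.29 and 16 of 17 without wild-type replicate 3), with the inhibitory receptor genes Pirb at 0.78 ± 0.37 and Fcgr2b at 0.65 ± 0.34.

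Among 11 response genes of the receptor 10 were higher (median 0.50, or 0.07 without wild-type replicate 3), with the adhesion receptor gene Cd2 at 0.71 ± 0.46 and the transcription factor gene Irf4 at 1.0 ± 0.70. Irf4 read 10.17, 9.44 and 9.34 in HDAC7-deficient cells, against 9.23, 9.68 and 7.05 in wild-type cells. Its HDAC7-deficient replicates 2 and 3 differed from replicate 1 by -0.78, in the same direction as the chain genes. Of the 11 response genes 7 were lower in that comparison (median -0.31), as were 46.3% of all genes and 62.8% of those of highest mean expression. Cd2 had a difference of 0.05, and the heavy chain gene Ighm, a part of the receptor, one of 0.56 in the other direction. Among 8 measured of 10 T cell counterparts 6 were higher (median 0.32), with the adaptor gene Lcp2, the T cell relative of Blnk, at 0.78 ± 0.30 and Cd3d at 0.45 ± 0.28.

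The genes whose 6 values followed the mean of the 8 most closely were Tpx2, a spindle assembly gene, Nsmce4a, Cct4, a subunit of the cytosolic chaperonin, Dnajc9 and the splicing factor gene Sfpq, with Pearson correlations of 0.9987 to 0.9997 over the 6 arrays. Over all 17089 other genes 12.4% had a correlation above 0.95. The 6 points are the arrays themselves, and wild-type replicate 3, at -1.42 from the mean profile against 0.07 to 0.56 for the others, sets much of each correlation. Over the other 5 arrays these genes correlated at 0.99 or above. Those arrays are among the 6 by which the genes were chosen, so this is not a separate check. Their own changes were 0.23 to 0.62 with limma adjusted p-values of 0.534 to 0.659.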

How the data were processed

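RNA from the sorted cells was amplified by a whole transcriptome kit, biotin labelled and hybridised to Affymetrix perfect-match mouse arrays (labels' protocols). The deposited table holds a log2 value for each probe set on each array. That these are log2 values follows from their range; the sources used here do not name the authors' normalization or software. Of 45141 probe sets 104 controls were set aside. Symbols came from the platform annotation, updated by gene number through a RefSeq table of GRCm38.p6 (28689 of 28898 probe sets with 1 symbol). Each of 17097 genes was its brightest probe set. The genotypes were fitted by limma 3.58.1 under R 4.3.3 (intensity trend, two-sided, Benjamini-Hochberg over all genes, threshold 0.05), tested on simulated data. No dim probe set was left out. The number of arrays limits the precision. Members and lists were chosen with earlier results of these data known. Besides the 8 genes, the naming rule took Hdac7, at most 2 genes per pathway list by smallest p, and the 5 genes of most similar profile. Marker genes and genes called under an alternative were named after their values were seen. Alternatives left out each array, or changed blocks, scaling, filters, probe set choice and variance model. A quantile scaling of 5 arrays and the scalings of the within-group difference were added after the data were seen. Figures used matplotlib 3.10.9.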

Additional observations from a re-analysis of the deposited data

How the results depend on the processing

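For all genes, 0 passed with all 6 arrays, 0 with any single array left out, and 0 under the other settings except 3. The replicate number as a block gave 1 gene, Hspa1b, and none of the 8 receptor pathway genes. Same-numbered arrays correlated at 0.096, 0.208 and 0.476 in their deviations from the group means. For HDAC7-deficient replicates 2 and 3 the same-numbered array was the best match, whereas replicate 1 correlated best with wild-type replicate 2 (0.357). Arrays of unlike number ran from -0.578 to 0.357. Deviations within a group depend on each other, so these values cannot settle pairing. The labels state no pairing, and the numbers were not taken as pairs. The Xist division as a block without wild-type replicate 3 gave 4 genes, Fos, Fosb, Jun and H1f2, named like Hspa1b after their values were seen. Array weights gave 10932 genes, but that estimation stopped before it converged, with a weight of 40500 on wild-type replicate 1 and 0.0148 to 0.892 on the others, so its calls, which included Vpreb1, Vpreb3, Cd79a, Btk and Blnk, are void as a check. It turned Vpreb1 to -0.66, Cd79a to -0.36 and Cd79b, which it did not call, to -0.15. Leaving out single arrays moved Vpreb1 between -0.44 and 0.33, Vpreb3 between -0.52 and 0.06, Cd79a between -0.46 and 0.39, and Cd79b between -0.21 and 1.01. Without wild-type replicate 3 or HDAC7-deficient replicate 1, Vpreb1 and Cd79a were negative. Quantile normalization turned Vpreb1 to -0.17, Cd79a to -0.42 and Plcg2 to -0.03, and together with leaving out wild-type replicate 3 gave Vpreb1 -0.43, Cd79a -0.54, Cd79b -0.24 and Btk -0.10. The Xist block turned Vpreb3 to 0.17, and without wild-type replicate 3 to 0.25, with Cd79a at -0.04. Syk and Blnk stayed positive under all 18 settings. Median centring moved the median of all genes from -0.03 to 0.10. Apart from array weights, no setting took any of the 8 genes past the threshold. The cause of these reversals was not tested.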
